A study of Mus musculus with 21 samples.

Results

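The clustered protocadherin locus of the mouse was described CpG by CpG in DNA that remained in nucleosomes in sperm. It was taken as chr18:37080000-38005000 on the mm9 build, and every listed CpG that starts there is a member, 8559 of the 15544856 CpGs in the table. Its bounds are coordinates and use no methylation or coverage value. The locus was read in 3 sections, alpha (37080000 to 37360000), beta (37410000 to 37800000) and gamma (37800000 to 38005000), with a short interval between alpha and beta. The reference for the neighbourhood is 500 kb on each side, with 9078 listed CpGs, and for the genome the 15110774 other autosomal CpGs, which include the flanks.

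The library is bisulfite-converted DNA associated with nucleosomes, from sperm of C57BL/6 mice. Bisulfite turns unmethylated cytosine into uracil, so the reads at a CpG count methylated and unmethylated copies. Sperm had been collected by swim-up, which keeps motile cells, and the chromatin was cut to single nucleosomes with micrococcal nuclease. Most of the genome of a sperm is packed by protamines, and copies of a CpG packed in that way are not measured here. CpGs are nevertheless listed across the genome, 15544856 of them. No number or age of the mice was given, and the library holds no expression by which the cell type could be checked. It is 1 of 21 samples of chromatin, RNA and bisulfite libraries of sperm and round spermatids, and the other 20 were not analysed here. With 1 library no test between groups is possible, so no p-value is given.

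Clustered protocadherins are adhesion proteins of the cell surface, best known from neurons. Each neuron switches on a few of the many promoters, and the resulting set of proteins lets it tell its own branches from those of other cells. In the alpha and gamma clusters each gene joins a variable exon of its own, with its own promoter, to exons shared by the cluster, whereas a beta gene is a single exon. The variable exons are rich in CpGs, and methylation of these promoters is known to limit their use and the binding of the insulator protein CTCF. In the RefSeq table, on the GRCm38 assembly, the order of genes runs from Pcdha1 to Pcdhac2 (14 genes), from Pcdhb1 to Pcdhb22 (22 genes) and from Pcdhga1 to Pcdhgc5 (22 genes). Slc25a2, a mitochondrial carrier, and Taf7, a subunit of the general transcription factor TFIID, lie between beta and gamma. No annotation on mm9 was used here, so no CpG is assigned to an exon or gene.

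Pooled over all its listed CpGs, methylation of the locus was lower than that of its neighbourhood, and its coverage was higher. Inside the CpG-dense stretches described below, the level of the locus was instead above that of the flanks. CpGs with a total above 19 were set aside; of the remaining 38752 reads 39.9% were methylated (95% Wilson interval 39.4 to 40.4), against 63.5% in the flanks (63.0 to 64.1) and 73.9% over other autosomal CpGs. Among CpGs with 10 to 19 reads the contrast with the flanks was lost. These had 25.02% in the locus (24.1 to 25.9, 728 CpGs) and 26.2% in the flanks (24.2 to 28.3, only 149 CpGs). The contrast with other autosomal CpGs of that depth remained, at 43.3%. The flank before the locus had 61.8% (61.0 to 62.7) and the one after it 64.8% (64.1 to 65.5). Reads averaged 4.54 ± 3.27 per listed CpG in the locus (SD over 8535 CpGs), 3.36 ± 2.26 in the flanks (9074 CpGs) and 3.27 ± 2.27 over other autosomal CpGs. The ratio of locus over flanks was 1.35 (1.33 to 1.37, counting error) and that of locus over other autosomal CpGs 1.39 (1.37 to 1.40). CpGs without reads are not listed, and a truncated negative binomial fitted to the counts put their share at 10.7% in the locus, 12.9% in the flanks and 14.9% elsewhere. CpGs with 10 or more reads made up 8.79% of the listed ones in the locus, 1.69% in the flanks and 2.0% over other autosomal CpGs. Neighbouring CpGs share reads and PCR copies cannot be told apart, so all intervals here cover counting error at most and are too narrow.

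The 3 sections differed. Gamma was the richest in listed CpGs, with 16.04 per kb, against 8.61 in alpha and 6.70 in beta. The pooled level was 36.2% in alpha (35.3 to 37.05), 50.2% in beta (49.2 to 51.2) and 35.4% in gamma (34.6 to 36.1), so the intervals of alpha and gamma overlap and beta lies above both. In the interval between alpha and beta, with 246 listed CpGs, the level was 64.8% (61.4 to 68.1). Coverage followed the reverse order, with 4.83 ± 3.66 reads per listed CpG in alpha, 3.72 ± 2.61 in beta and 5.09 ± 3.35 in gamma (SD over 2404, 2609 and 3276 CpGs).

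**Figure D1:**
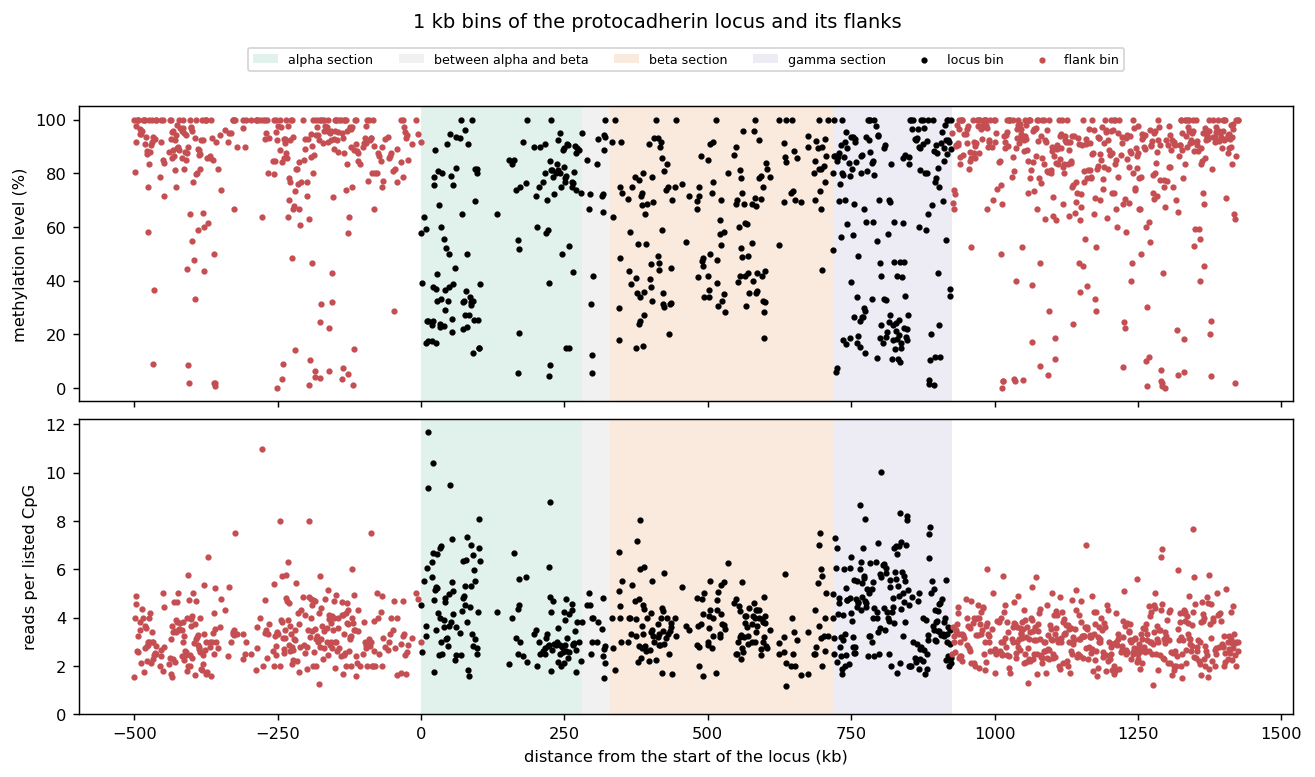
Methylation level in percent (top) and reads per listed CpG (bottom) of 1 kb bins with 10 or more CpG reads, against the distance in kb from the start of the locus. Black points are bins of the locus, red points bins of the flanks, and the shading marks the sections. Between 20% and 80% lie 287 of 506 bins of the locus and 175 of 762 bins of the flanks, and above 80% lie 171 bins of the locus and 541 of the flanks.

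In 1 kb bins the locus was marked by partial methylation. Of 506 bins with 10 or more CpG reads, 287 (56.7%) had a level of 20% to 80%, against 23.0% of 762 bins in the flanks and a background of 21.2% of the 1417385 autosomal bins. Another 171 (33.8%) lay above 80%, against 71.0% in the flanks and 76.5% over all autosomal bins. The remaining 48 (9.49%) lay under 20%, against 6.04% in the flanks and 2.37% over all autosomal bins. Partly methylated bins made up 62.2% of the bins in alpha, 70.6% in beta and 39.7% in gamma, whose bins lay more often under 20% (17.2%) or over 80% (43.1%).

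Bins of the locus were also set beside other autosomal bins with a like number of CpGs. Among bins with 40 or more CpGs of up to 19 reads, 21 of 35 in the locus had a level of 20% to 80%, or 60%, against 3.89% of 16499 other autosomal bins. Their median level was 22.8% in the locus and 2.51% elsewhere. In bins with 20 to 39 CpGs the median was 32.3% in the locus (108 bins) and 73.95% elsewhere, so in this class the locus was the less methylated. In bins with 10 to 19 CpGs the medians were 59.0% in the locus (115 bins) and 90.5% elsewhere, and 64.3% of the bins in the locus were partly methylated, against 22.6% elsewhere. Bins with 1 to 9 CpGs had medians of 81.3% in the locus (248 bins) and 91.3% elsewhere.

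Of the bins under 20%, the 5 with the most CpG reads lay in alpha and gamma. The one with the most, chr18:37966000-37966999, had 8 methylated of 605 CpG reads, a level of 1.32% (0.672 to 2.59). In chr18:37303000-37303999 the level was 4.47% (2.94 to 6.73, 470 CpG reads). The rest were higher, with 15.01% in chr18:37181000-37181999 (533 CpG reads), 17.7% in chr18:37091000-37091999 (487) and 13.03% in chr18:37854000-37854999 (445). Bins above 80% were interspersed with these, and the longest unbroken run of them was 5 bins, chr18:37859000-37863999 in gamma, at 96.9% (92.4 to 98.8, 130 CpG reads).

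CpG-dense stretches were then located from the listed positions alone. A CpG was taken as dense where a window reaching 100 bp to either side of it held 6 or more listed CpGs, counting the CpG. Dense CpGs up to 300 bp apart were joined, and a stretch needed 20 listed CpGs. The rule reads no methylation value, but deeper coverage lists more CpGs and coverage goes with methylation in these data, so it is independent of neither. The locus held 77 such stretches, 23 in alpha, 1 in the interval between alpha and beta, 24 in beta and 29 in gamma. With joining over gaps of up to 1000 bp there were 67, with 17, 23 and 25 in alpha, beta and gamma. Wider joining also lets further runs reach 20 listed CpGs, so these are not only the same stretches regrouped. The 77 stretches covered 85.8 kb, with a median length of 979 bp, and held 48.0% of the listed CpGs and 61.9% of the CpG reads. In the flanks, stretches held 20.4% of the listed CpGs, and over other autosomal CpGs 10.8%.

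Most stretches of the locus were partly methylated. All 77 had at least 50 CpG reads, the minimum for a level. Of these, 50 (64.9%) had a level of 20% to 80%, against 5 of 33 in the flanks (15.2%) and a background of 20.2% of the 26820 autosomal stretches. A further 24 (31.2%) lay under 20%, against 24 of 33 in the flanks (72.7%) and 60.8% of all autosomal stretches, and 3 (3.90%) lay above 80%, against 4 in the flanks and 19% of all autosomal stretches. The count under 20% became 10 of 67 with joining over gaps of up to 1000 bp and 14 of 42 with at least 40 CpGs per stretch, and the partly methylated ones became 55 and 27. The levels were narrowly grouped, with a lowest of 5.04%, a median of 25.5%, quartiles of 19.3% and 33.3%, and a highest of 94.7%. Levels of 10% to 50% were found in 69 of 77 stretches (89.6%), in 2 of 33 in the flanks (6.06%) and in 16.2% of the 26743 other autosomal stretches. This range differs from the set limits of 20% and 80% and follows where the levels of the locus lie. The contrast it gives is therefore a description that favours the locus, and the comparison at 20% to 80% is the less fitted. At 0% to 10% lay 3.90% of the stretches of the locus and 56.1% of the others, and at 90% to 100% lay 2.60% of the stretches of the locus and 15.1% of the others.

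**Figure D2:**
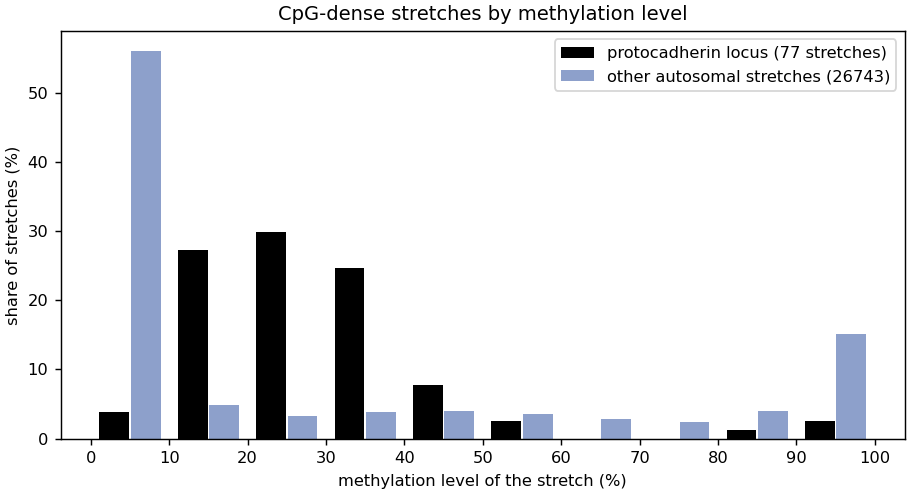
Share of CpG-dense stretches, in percent, in each class of 10 percentage points of methylation level, for the protocadherin locus (black) and other autosomal stretches (blue). The stretches of the locus gather between 10% and 50%, whereas other stretches are most frequent at 0% to 10% and at 90% to 100%.

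Partial methylation was more frequent in the locus in each class of density examined. Among stretches with 4 to 5 listed CpGs per 100 bp, 24 of 33 in the locus had a level of 20% to 80% (72.7%), against 33.5% of 5101 elsewhere. At 5 to 6 CpGs per 100 bp it was 13 of 20 in the locus (65%) against 19.4% of 4032 elsewhere, and at 6 to 8 it was 3 of 7 in the locus against 7.60% of 6305 elsewhere. These classes hold 33, 20 and 7 of the 77 stretches of the locus. Stretches with fewer than 4 or at least 8 CpGs per 100 bp were not compared. The levels of partly methylated stretches were also lower in the locus, with a median of 30.9% (quartiles 25.4% and 35.6%), than elsewhere, with 46.9% (34.8% and 61.0%).

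The autosomes were also divided into windows of 1 Mb, on a grid from the chromosome start. The 1 Mb from 37000000 of chromosome 18 had 50 partly methylated stretches of 77, the highest number among 2417 such windows. The next was the window from 80000000 of chromosome 10, with 34 of 129, and the median window had 1. Because the locus nearly fills its window, the grid was also shifted by 500 kb, which divides the locus between windows. The window from 37500000 then had 31 partly methylated stretches of 63, still the highest number, and the one from 36500000 had 24 of 48. The locus held 0.923% of all partly methylated autosomal stretches and 0.287% of all autosomal stretches.

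In beta every stretch was partly methylated. The 24 levels ran from 21.3% to 56.1% with a median of 34.2%. Alpha followed with a median of 27.8% (23 stretches, 5.04% to 94.7%), and gamma was lowest with 19.7% (29 stretches, 5.604% to 85.9%). Under 20% lay 7 stretches in alpha, none in beta and 16 in gamma. The pooled levels of the stretches were 25.02% in alpha (24.1 to 26.0), 35.1% in beta (33.7 to 36.6) and 18.9% in gamma (18.1 to 19.6). These intervals do not overlap, but they describe reads of 1 library and not variation between animals. The 1 stretch between alpha and beta, with 30 listed CpGs, had a level of 13.1% (8.33 to 19.9).

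**Figure D3:**
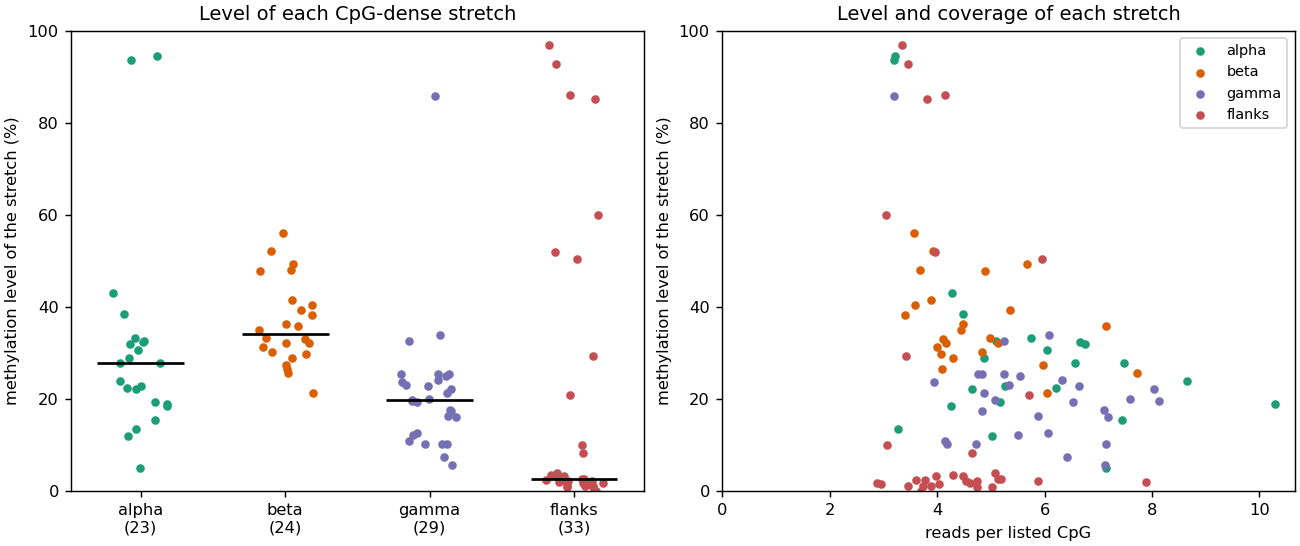
Left, methylation level in percent of each CpG-dense stretch of alpha, beta, gamma and the flanks, with the median as a line and the number of stretches below; the 1 stretch between alpha and beta is not drawn. Right, the same levels against reads per listed CpG. Medians are 27.8% in alpha, 34.2% in beta, 19.7% in gamma and 2.52% in the flanks.

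Stretches were spread along the sections with long pauses. In alpha the first 21 lay within 92.3 kb from 37089827, with a median of 5.12 kb between the starts of neighbours over the whole section, and the next began 69.7 kb after the start of the last of them. Of these 21, 19 had levels from 13.3% to 43.0% and 2 lay above 80%. Beta had a median of 8.27 kb between starts, with a largest step of 45.9 kb. Gamma had a median of 4.88 kb, with 25 stretches before a step of 40.1 kb and 4 after it.

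The 3 least methylated stretches lay late in alpha, at the start of gamma and late in gamma. chr18:37303103-37304549, the last of alpha, had 112 listed CpGs, a level of 5.04% (3.73 to 6.80) and 7.14 ± 4.71 reads per listed CpG. chr18:37965653-37968569, late in gamma, had 178 listed CpGs over 2917 bp, a level of 5.604% (4.47 to 7.01) and 7.12 ± 3.17 reads. chr18:37802926-37804254, the first of the gamma section, had a level of 7.29% (5.31 to 9.92) and 6.42 ± 2.67 reads. The sections leave no interval for Slc25a2 and Taf7 between beta and gamma, so whether it belongs to a protocadherin gene was not tested. The 3 stretches described were the only ones of the locus under 10%, 3 of 77, against 24 of 33 in the flanks. The next, chr18:37901669-37902391 and chr18:37974733-37976057, both in gamma, had 10.1% each (6.70 to 14.9 and 7.11 to 14.3).

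At the other end, 3 stretches were almost fully methylated. chr18:37148292-37149214 had 94.7% (89.5 to 97.4, 41 CpGs) and chr18:37140990-37141208 had 93.8% (85.0 to 97.5, 20 CpGs), both among the partly methylated stretches of early alpha. chr18:37976365-37976976 in gamma had 85.9% (75.4 to 92.4, 20 CpGs), and it directly followed the stretch at 10.1% that ends at 37976057. These 3 also had the fewest reads of all stretches in the locus, with 3.22 ± 2.30, 3.2 ± 1.47 and 3.2 ± 1.36 reads per listed CpG in the order given (SD over CpGs). The highest levels in beta were 56.1% in chr18:37633487-37634317 (45.3 to 66.3) and 52.2% in chr18:37657277-37658906 (46.0 to 58.2).

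The best covered stretches were partly methylated or close to it. chr18:37091087-37092280 had 10.3 ± 4.95 reads per listed CpG (SD over 63 CpGs) at a level of 18.98% (16.1 to 22.2). chr18:37099034-37101231 had 8.65 ± 4.60 reads (98 CpGs) at 23.8%, and chr18:37845041-37846257 had 8.14 ± 3.54 reads (44 CpGs) at 19.6%. Beside the one late in gamma described above, the longest were chr18:37925515-37928508 (2994 bp, level 19.97%, 17.8 to 22.4), chr18:37906582-37909308 (2727 bp, 19.3%), chr18:37157426-37159966 (2541 bp, 27.8%) and chr18:37179811-37182135 (2325 bp, 15.3%).

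Single CpGs within the partly methylated stretches were also counted. The same reads set the level of the stretch, so most of its CpGs fall in the same range, and the counts are no independent support. Of 297 CpGs with 10 or more reads in the partly methylated stretches of the locus, 208 (70.0%) had a level of 20% to 80%, 89 lay under 20% and none lay above 80%. In partly methylated stretches elsewhere the shares were 72.2%, 24.5% and 3.28% of 10947 CpGs. The spread of CpG levels within a stretch was set against the spread that sampling of reads alone would give at the stretch's level. This ratio of variances had a median of 1.13 over the 50 stretches of the locus (quartiles 0.959 and 1.35), and 1.13 over 5370 stretches elsewhere (0.903 and 1.42). Reads of 1 molecule cover neighbouring CpGs, and the table does not keep molecules apart, so the share of fully methylated molecules is not measured.

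At equal CpG density, the locus departed from other autosomal CpGs in opposite directions at the ends of the density scale. With 6 to 9 CpGs listed in the 100 bp to either side, the level was 35.1% in the locus (34.1 to 36.0) and 70.2% elsewhere, a difference of -35.2 percentage points (-36.1 to -34.2). Where 15 or more were listed, it was 16.6% in the locus (15.7 to 17.6) and 3.26% elsewhere, a difference of 13.4 points (12.4 to 14.4). Differences at 1 or 2, 3 to 5 and 10 to 14 CpGs were -11.7, -27.7 and -5.48 points. At 10 to 14 CpGs the locus lay above its flanks, with 23.9% in the locus (23.0 to 24.8) and 20.7% in the flanks (19.2 to 22.2). The flanks lay near the other autosomal CpGs in the densest class, at 4.79% (4.16 to 5.51). Density is not matched inside a class, and its part in the differences was not tested. With windows of 250 bp to either side the difference was -31.7 points at 10 to 14 CpGs and 6.65 at 15 or more.

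With windows of 100 bp to either side, coverage at equal density was as high or higher in the locus. Reads per listed CpG averaged 2.83 in the locus and 2.82 elsewhere at 1 or 2 CpGs, a ratio of 1.005 whose interval holds 1 (0.978 to 1.03). The ratio was 1.15 at 3 to 5 CpGs, 1.37 at 6 to 9, 1.41 at 10 to 14 and 1.23 (interval 1.19 to 1.26) at 15 or more. In the last class this came with a higher methylation level in the locus, 16.6% against 3.26% elsewhere. With windows of 250 bp to either side the ratio was 1.004 at 3 to 5 CpGs, 1.06 at 6 to 9, 1.23 at 10 to 14 and 1.25 at 15 or more. CpGs above 19 reads numbered 24 in the locus, all inside stretches, and when such CpGs were kept everywhere the ratio at 3 to 5 CpGs was 0.832. The variable exons are related in sequence and the treatment of reads that match several places was not given, so the part of such reads in the coverage was not tested.

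**Figure D4:**
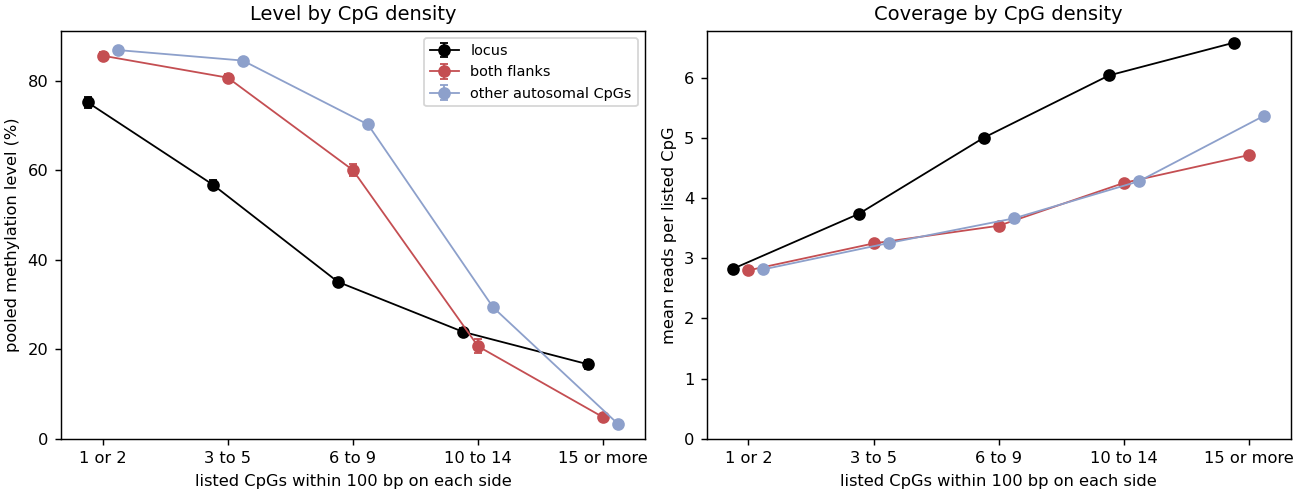
Pooled methylation level in percent with 95% Wilson intervals (left) and mean reads per listed CpG (right) by the count of listed CpGs in the 100 bp to either side, for the locus (black), the flanks (red) and other autosomal CpGs (blue). The level of the locus is the lowest at 6 to 9 CpGs and the highest at 15 or more, and its coverage exceeds both from 3 CpGs upward.

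The link between methylation and coverage was also read stretch by stretch. Reads per listed CpG averaged 6.58 in the 24 stretches of the locus under 20%, 5.53 in the 50 partly methylated ones and 3.21 in the 3 above 80%. Elsewhere the same states had 5.02, 4.49 and 3.52 reads. Partly methylated stretches of the locus thus had more reads than low stretches elsewhere, with medians of 5.03 (quartiles 4.28 and 6.05) and 4.76 (3.94 and 5.66), and these ranges overlap widely. Across the 77 stretches level and coverage had a Spearman correlation of -0.43, and across the 26743 others -0.37, both as descriptions within 1 library whose depth they share. Within sections it was -0.31 in alpha, -0.42 in beta and -0.21 in gamma. Level and listed CpGs per 100 bp had a correlation of -0.26 in the locus and -0.68 elsewhere.

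CpGs outside the stretches were less methylated in the locus than elsewhere. Outside stretches the level was 66.1% in the locus (65.3 to 66.9), 82.7% in the flanks and 85.3% over other autosomal CpGs, with 3.32, 3.08 and 3.09 reads per listed CpG. By section it was 63.0% in alpha, 61.8% in beta and 71.5% in gamma. Inside stretches coverage was 1.77 times that outside in the locus, 1.44 times in the flanks and 1.56 times over other autosomal CpGs. Alpha had the highest such ratio of the sections, 2.03, against 1.496 in beta and 1.65 in gamma.

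Around stretches the levels pooled over the locus were lopsided along the chromosome, though not alike in its sections. At 1001 to 2000 bp on the side of lower coordinates the level was 56.4% in the locus (53.8 to 58.9), and at the same distance on the other side it was 82.0% (79.6 to 84.2). Other autosomal stretches had 83.3% and 83.7% at these distances. Over 2000 and up to 4000 bp away the order was the other way, with 79.3% (75.9 to 82.3) on the side of lower coordinates and 73.0% (69.7 to 76.1) on the other, against 85.9% on both sides elsewhere. Inside stretches, more than 300 bp from either edge, CpGs nearer the edge of lower coordinates had 18.2% in the locus (17.2 to 19.2) and those nearer the other edge 23.9% (22.8 to 24.9), against 6.45% and 6.37% elsewhere.

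The sections differed in this respect. Levels over 500 and up to 2000 bp away on both sides could be read for 59 stretches with 10 or more CpG reads on each side. The side of lower coordinates was the less methylated in 35 of these 59 stretches (59.3%), against 50.2% of 24014 stretches elsewhere. By section it was so in 17 of 19 stretches of beta, 8 of 14 of alpha and 10 of 26 of gamma. The medians in beta were 48.0% on the side of lower coordinates and 73.5% on the other, in alpha 59.6% and 75.3%, and in gamma 78.4% and 71.5%. Pooled over reads, beta had 43.8% and 76.1%, alpha 52.5% and 70.6%, and gamma 71.2% and 71.95%, so the difference between the medians of gamma did not hold in the pooled levels. Neighbouring stretches can share such a window, so these counts are not independent. CpG-rich places that miss the rule for a stretch also lie in such windows, and their part in the difference between the sides was not tested.

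**Figure D5:**
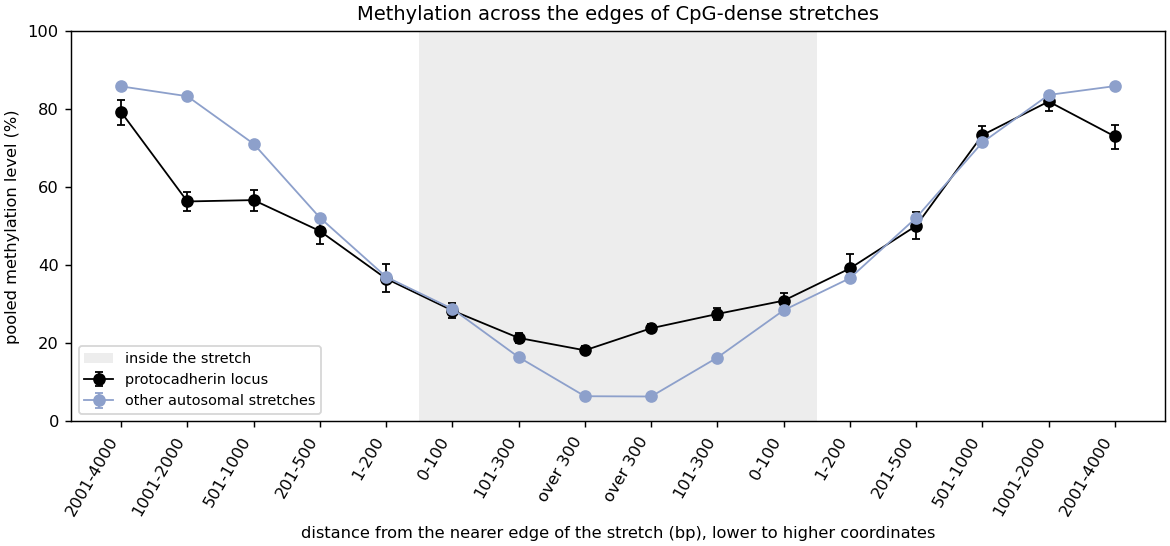
Pooled methylation level in percent, with 95% Wilson intervals, by distance in bp from the nearer edge of a CpG-dense stretch, from lower to higher coordinates, for the locus (black) and other autosomal stretches (blue); grey marks the inside. The locus stays at 56.7% and 56.4% over 500 and up to 2000 bp on the left, while it reaches 73.4% and 82.0% on the right and other stretches rise alike on both sides.

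Coverage of neighbouring CpGs within a stretch was correlated at short distances. Over the 50 partly methylated stretches the correlation in the locus was 0.814 at 1 to 20 bp (2387 pairs), against 0.785 in partly methylated stretches elsewhere. At 41 to 60 bp it was 0.071 in the locus and 0.027 elsewhere, and at 181 to 200 bp 0.052 in the locus (1891 pairs) and -0.105 elsewhere. One read can cover both CpGs of a close pair, and its part in these values was not tested. Correlations this weak at the longer distances in sparse counts are given as values alone.

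Levels of the locus fell with depth, as did those of the flanks. CpGs with 1 read had 64.1% in the locus and 74.6% in the flanks, and those with 5 to 9 reads 38.7% in the locus and 59.8% in the flanks. Other autosomal CpGs had 83.1% at 1 read, 70.9% at 5 to 9 and 43.3% at 10 to 19. At 10 to 19 reads, where the levels of locus and flanks overlapped, CpGs in dense surroundings made up 86.1% of those in the locus and 67.8% of those in the flanks, against 23.6% and 21.1% at 1 read.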

How the data were processed

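The authors deposited raw counts for every covered CpG, of all reads and of methylated reads, with chromosome and start, per the file headers. Bowtie and the build mm9 are named in the submitters' processing notes. Alignment settings, the handling of duplicates and of reads matching several places, and bisulfite conversion were not given. The table lists 15544856 CpGs with 60995624 CpG reads (median 3, smallest 1), so CpGs without reads are absent. It does not state whether positions count from 0 or 1. Levels are methylated over all reads, pooled over CpGs of up to 19 reads, with 95% Wilson intervals. Low is under 20% and high over 80%; a bin needed 10 CpG reads and a stretch 50. Named stretches are the 5 lowest and highest in level, the 3 with the most and fewest reads per CpG and the 5 longest. Named bins are the 5 under 20% with the most CpG reads. The members and definitions were chosen with earlier results of these data known. Alternatives changed the limit on reads, read minimums, density, joining, bins and thresholds. Python 3.11.15, numpy 2.4.6, pandas 2.3.3, scipy 1.17.1 and matplotlib 3.10.9 were used, tested on simulated data.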

Additional observations from a re-analysis of the deposited data

How the results depend on the processing

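No paired analysis was possible because the data come from 1 library. Of the 98 values under other settings, 62 moved beyond the main interval (for counts, beyond 1.5 times), 3 reversed and 33 did neither. The counts of partly methylated stretches and the shifted 1 Mb grid were alternatives chosen after seeing the data. With CpGs of 5 or more reads, pooled levels were 34.2% in the locus, 30.6% in alpha, 45.7% in beta, 30.9% in gamma and 55.8% in the flanks. With 10 or more reads they were 25.02%, 23.2%, 38.8%, 23.3% and 26.2%, so the gap between locus and flanks nearly closed. As unweighted means of CpGs with 5 or more reads they were 36.7%, 33.2%, 47.1%, 32.9% and 58.6%.

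Reads per listed CpG with a limit of 11 were 4.13 in the locus, 4.21 in alpha, 3.59 in beta, 4.60 in gamma and 3.29 in the flanks. Means of a negative binomial truncated at 0 and above 19 were 4.10, 4.30, 3.25, 4.84 and 2.93, and with no limit the locus had 4.59. The ratio of locus over flanks became 1.25 (limit of 11) and 1.40 (truncated), and that of locus over other autosomal CpGs 1.29 and 1.47, with 1.16 without a limit.

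With 10 listed CpGs making a CpG dense there were 51 stretches, 30 of them partly methylated and 1 above 80%, at a pooled level of 19.9% and 6.47 reads per listed CpG. Joining over 1000 bp gave 10 stretches under 20%, a level of 27.5% and 5.599 reads. Requiring 40 CpGs gave 42 stretches, 14 under 20%, 27 partly methylated and 1 above 80%, at 22.2% and 6.20 reads. Stretches had 5.97 reads without a limit. Partly methylated stretches remained more frequent in the locus than elsewhere under each setting, at 58.8% against 6.59%, 82.1% against 27.4%, 64.3% against 6.52% and 66.2% against 20.1%. Thresholds of 10% and 90% left 10 low and 91 high bins, and 20 reads per bin left 93 high bins.

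With density windows of 250 bp to either side, differences in level from the sparsest to the densest class were -9.29, -9.15, -21.8, -31.7 and 6.65 points. Coverage ratios in the 4 sparser classes moved to 0.981 (reversed), 1.004, 1.06 and 1.23. Without a limit on reads, the differences were -19.5 points at 3 to 5 CpGs and -29.2 at 6 to 9, and the ratios 0.984 at 1 or 2 CpGs and 0.832 at 3 to 5 (both reversed), 1.02 at 6 to 9 and 1.17 at 15 or more. A few CpGs of extreme depth elsewhere then enter the mean. The reversed ratios at 1 or 2 CpGs, 0.981 and 0.984, lie inside the main interval of 0.978 to 1.03. Depth limits single CpGs, since 752 in the locus have 10 or more reads.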
